A study of Mus musculus with 2 samples.

Results

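The 6 Prame-like genes described here are Pramel4, Pramel5, Pramel6, Pramel7, Pramef8 and Pramef12, taken by name, 1 probe each, from the 26127 probes measured by RNA sequencing in mouse embryonic stem (ES) cells. They were chosen as Prame-like genes of the preimplantation embryo and naive ES cells, and all 6 names were found. The study compared wild-type (WT) ES cells, in which both copies of the H3.3 genes H3f3a and H3f3b were intact, with ES cells carrying a single copy of the histone H3.3 mutation G34R, a glycine-to-arginine change found in paediatric glioblastoma. Both lines were of the 129S1/SvImJ strain, below passage 20, and were grown in medium with foetal calf serum and leukemia inhibitory factor (LIF). In the G34R line 1 H3f3a allele had been targeted with an H3.3 minigene, which Cre recombinase replaced by the mutant coding sequence under the endogenous promoter, so this line descends from a selected clone. The mutation cannot be seen in gene-level values.

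Each line had 1 total RNA library, so no value here has a replicate, nothing was tested, and the effects of genotype, clone, culture and library cannot be told apart. Values are RPKM (reads per kilobase of transcript, scaled to the number of mapped reads) as deposited. From the steps between low RPKM values the depth was estimated as 88370000 reads in the WT library and 72490000 reads in the G34R library. Read numbers estimated with these depths gave exact (Clopper-Pearson) 95% intervals for ratios, which cover counting error only. In such bulk RNA a lower level in every cell cannot be told apart from fewer cells with the transcript.

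Prame family proteins are built of leucine-rich repeats, and several act as substrate receptors of ubiquitin ligases assembled on cullin 2. The family has expanded in the mouse into many neighbouring copies expressed in the germ line and early embryo. Pramel7 is known from the inner cell mass and naive ES cells, where it acts downstream of LIF and Stat3 and directs the degradation of Uhrf1, the protein that brings the maintenance methyltransferase Dnmt1 to replicating DNA. Pramel6 is described beside it in the same cells. Pramef12 is known for its role in spermatogonial stem cells.

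In the mm9 build the genes lay at 2 loci. Pramel7 (ENSMUSG00000025839) occupied chr2:87329244-87337250 on the minus strand and Pramel6 (ENSMUSG00000025838) chr2:87346722-87351029 on the plus strand. Their 5′ ends faced each other 9.47 kb apart. The other 4 genes lay on chromosome 4, in a cluster that spanned 996 kb from Pramef8 to Pramef12. It held 22 Prame family probes by name or RefSeq synonym. Pramef8 (ENSMUSG00000046862; Pramel12 in RefSeq) occupied chr4:143002329-143010994 on the plus strand. Pramel4 (ENSMUSG00000073724) lay on the plus strand at chr4:143649029-143659230, and Pramel5 (ENSMUSG00000036749) on the minus strand at chr4:143860536-143870391. Pramef12 (ENSMUSG00000028591; Pramel13 in RefSeq) occupied chr4:143981577-143998367 on the minus strand. All 6 are annotated as protein-coding, with coding sequences of 1392 to 1512 bases.

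The 250 bases before the most 5′ annotated start are shown for the 4 genes with transcripts, because 2 of them differed between the lines and 2 hardly did. They are mm9 sequence, 5′ to 3′ on the strand of the gene, with each CpG in capitals.
Pramel7 (chr2:87337251-87337500, minus strand): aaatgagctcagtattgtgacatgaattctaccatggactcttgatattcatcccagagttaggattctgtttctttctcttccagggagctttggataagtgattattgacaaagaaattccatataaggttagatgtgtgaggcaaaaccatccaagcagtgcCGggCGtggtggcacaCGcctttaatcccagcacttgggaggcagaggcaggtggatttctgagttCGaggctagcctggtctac
Pramel6 (chr2:87346472-87346721, plus strand): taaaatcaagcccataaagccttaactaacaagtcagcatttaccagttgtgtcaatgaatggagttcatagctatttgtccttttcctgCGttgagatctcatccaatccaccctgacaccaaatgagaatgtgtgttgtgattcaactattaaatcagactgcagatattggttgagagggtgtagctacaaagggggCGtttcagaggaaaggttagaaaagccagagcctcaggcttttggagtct
Pramef8 (chr4:143002079-143002328, plus strand): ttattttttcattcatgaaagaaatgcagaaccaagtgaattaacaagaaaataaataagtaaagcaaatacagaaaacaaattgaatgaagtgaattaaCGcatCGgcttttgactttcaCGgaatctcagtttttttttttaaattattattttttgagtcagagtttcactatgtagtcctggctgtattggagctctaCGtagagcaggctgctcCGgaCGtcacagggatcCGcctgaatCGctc
Pramef12 (chr4:143998368-143998617, minus strand): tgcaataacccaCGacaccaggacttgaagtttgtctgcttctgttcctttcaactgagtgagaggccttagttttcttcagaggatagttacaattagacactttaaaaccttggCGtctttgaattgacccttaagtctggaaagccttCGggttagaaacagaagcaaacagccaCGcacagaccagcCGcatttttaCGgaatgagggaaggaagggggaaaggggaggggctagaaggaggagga
The windows held 4 CpGs at Pramel7, 2 at Pramel6, 8 at Pramef8 and 6 at Pramef12. Across 26109 probes the median was 7, with quartiles of 2 and 17. All 4 windows fell inside or on these quartiles. Pramel4 and Pramel5 had 1 and 0 CpGs in theirs. The annotated start of Pramel7 used here belongs to non-coding isoforms, and its coding transcript is annotated from a downstream exon.

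The same windows were searched on both strands, at any position, for 6 motifs. These included a STAT site (TTCNNNGAA), an Esrrb site (TCAAGGTCA) and an octamer bound by Pou5f1 and its relatives (ATGCAAAT). Also searched were a GC box (GGGCGG), which Sp1 family factors bind, and a TATA box (TATAAA). The last motif was an E-box of the kind bound by basic helix-loop-helix factors (CACGTG). The only match among the 6 genes was TTCACGGAA at Pramef8, 133 to 125 bases before the start. It fits the STAT letters, which 6.93% of all 26109 windows held. The other motifs were found in 0.372% (Esrrb), 1.56% (octamer), 37.1% (GC box), 12.1% (TATA box) and 6.33% (E-box) of all windows. Neither Pramel6 nor Pramel7 had a match in its window.

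Likeness in coding sequence was compared across the loci. Prame family genes known only by RefSeq synonym were compared if they had at least 0.25 RPKM in 1 library. Pramel7 and Pramel6, neighbours on chromosome 2, shared 59.7% of 1401 aligned coding bases. The closest relatives of Pramel7 among the compared genes were on chromosome 4: Gm13128 (Pramel30 in RefSeq) at 81.2% and Pramef17 (Pramel14 in RefSeq) at 80.9%. These 2 were near-identical copies, with 10 of 1428 coding bases different. Among the compared genes Pramel6 was closest to Oog4, an oocyte-expressed member of the family on chromosome 4, at 67.2%. Pramel4 and Pramel5 shared 93.7% of 1436 aligned bases. Stretches of 120 coding bases show the relation, with capitals where a gene differs from the first of its group.
Pramel7, coding bases 5 to 124: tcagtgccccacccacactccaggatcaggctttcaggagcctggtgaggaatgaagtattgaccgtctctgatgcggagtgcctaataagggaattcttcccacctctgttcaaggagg
Pramef17, coding bases 8 to 127: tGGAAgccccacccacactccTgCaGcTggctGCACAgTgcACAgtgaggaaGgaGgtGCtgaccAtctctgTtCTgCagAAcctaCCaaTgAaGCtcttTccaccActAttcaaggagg
Gm13128, coding bases 8 to 127: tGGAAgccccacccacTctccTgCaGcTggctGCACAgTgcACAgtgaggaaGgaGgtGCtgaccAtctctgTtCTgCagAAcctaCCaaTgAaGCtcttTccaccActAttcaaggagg
Pramel4, coding bases 58 to 177: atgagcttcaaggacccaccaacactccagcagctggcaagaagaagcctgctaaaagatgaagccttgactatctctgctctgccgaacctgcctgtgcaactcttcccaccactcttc
Pramel5, coding bases 1 to 120: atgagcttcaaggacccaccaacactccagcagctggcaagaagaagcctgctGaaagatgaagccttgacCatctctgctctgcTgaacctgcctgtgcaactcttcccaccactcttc
In these stretches Pramef17 differed from Pramel7 at 37 bases and Gm13128 at 38, and Pramel5 differed from Pramel4 at 3.

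**Figure D1:**
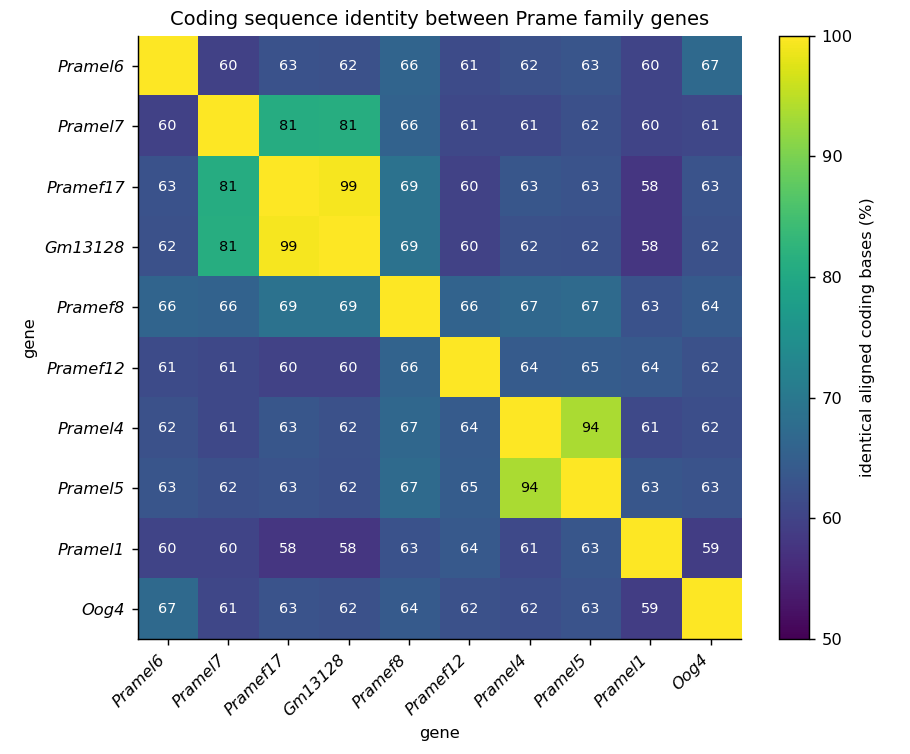
Percentage of aligned coding bases that are identical, for each pair of 10 Prame family genes (rows and columns); colour runs from 50 to 100%. Pramel7 stands with Pramef17 and Gm13128 at 81%, Pramel4 with Pramel5 at 94%, and Pramel6 reaches no more than 67% with any gene shown.

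Likeness in sequence bears on the counts, since the reads were 50 bases long. Of the 50-base windows within the exons, none of Pramef8 or Pramef12 occurred exactly elsewhere in mm9. Pramel6 had 0.11% of such windows and Pramel7 2.84%, so the counts of these 4 genes hardly depend on how shared reads were assigned. Pramel4 had 95.8%, most of them in the nearby Gm13102, and Pramel5 had 31.2%. Pramef17 and Gm13128 shared 1201 windows with each other, 74.8% and 75.2% of theirs, so the split of reads between those 2 is uncertain.

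Levels among the 6 genes differed widely. In WT cells Pramef12 was at 10.07 RPKM, Pramef8 at 3.32 RPKM, Pramel6 at 1.02 RPKM and Pramel7 at 0.81 RPKM. In G34R cells Pramef12 was at 7.19 RPKM, Pramef8 at 3.72 RPKM, Pramel7 at 0.10 RPKM and Pramel6 at 0.07 RPKM. Pramel4 and Pramel5 were listed at 0 in both lines. The chromosome 4 genes Pramef12 and Pramef8 thus stood above the chromosome 2 pair in both libraries, and the gap was wider in G34R cells. Pramef8 had 4.10 times the RPKM of Pramel7 in WT cells and 37.2 times in G34R cells.

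**Figure D2:**
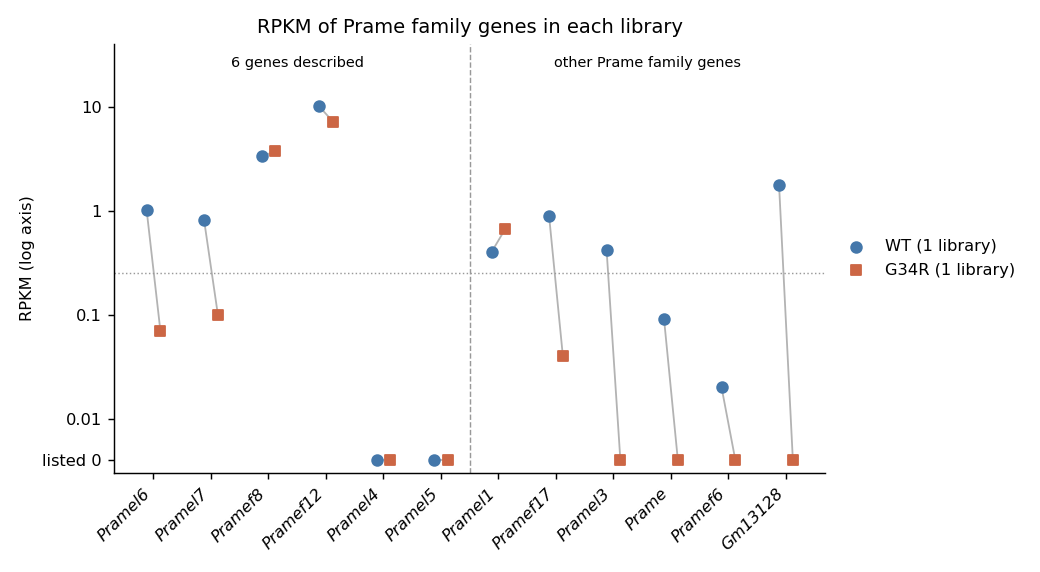
RPKM (log axis, with a place for values listed at 0) of the 6 genes and of 6 other Prame family genes in the WT library (circles) and the G34R library (squares); the dotted line marks 0.25 RPKM, and without replicates there are no error bars. Pramel6 is 14.6-fold and Pramel7 8.1-fold lower in G34R cells, Pramef8 and Pramef12 stay within 2-fold, and Pramef17, Pramel3 and Gm13128 are also lower in G34R cells.

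The order of neighbouring levels was checked against counting error. In WT cells Pramef12 exceeded Pramef8 by 3.03-fold (95% counting interval 2.83 to 3.25) and Pramef8 exceeded Pramel6 by 3.25-fold (2.79 to 3.81). Pramel6 exceeded Pramel7 by 1.26-fold (1.01 to 1.57), at the edge of counting error. In G34R cells Pramef12 was 1.93-fold above Pramef8 (1.78 to 2.09), and Pramef8 was 37.2-fold above Pramel7 (23.2 to 68.8). There the order of Pramel7 and Pramel6 was turned round, but their ratio of 1.43 (0.57 to 3.21) was within counting error.

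Pramel6, the gene described beside Pramel7 in naive ES cells, was 14.6-fold lower in the G34R library. Its RPKM of 1.02 and 0.07 came from about 188 and 11 reads, and the log2 (G34R/WT RPKM) was -3.87 (95% counting interval -4.84 to -2.94). Of all probes past the filter, 1.47% had a ratio as low or lower.

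Pramel7, the Uhrf1-directed substrate receptor, was 8.1-fold lower. Its 0.81 RPKM in the WT and 0.10 RPKM in the G34R library came from about 153 and 15 reads. The log2 ratio was -3.02 (-3.94 to -2.30), and 2.16% of the probes past the filter were as low or lower. The intervals of the pair overlapped, so their ratios were not distinguishable at this depth. Both genes remained above 0 in G34R cells, by a few reads.

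Pramef8, a cluster member whose function is less known, stood at 3.32 RPKM in the WT and 3.72 RPKM in the G34R library, from about 1225 and 1126 reads. The log2 ratio of 0.16 (0.05 to 0.28) was a 1.12-fold higher level in the G34R library. Pramef12, the spermatogonial stem cell gene, was at 10.07 RPKM and 7.19 RPKM, from about 2290 and 1341 reads. Its log2 ratio was -0.49 (-0.58 to -0.39), a 1.40-fold lower level, which 21.9% of the probes past the filter matched or went below. Both intervals left out 0, but counting error is not the spread between cultures, which these data do not hold. D530049N12Rik overlapped Pramef12 on the opposite strand, at 0.25 RPKM in WT and 0.16 RPKM in G34R cells, and the counting used strand.

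Pramel4 and Pramel5, the near copies in the middle of the cluster, were listed at 0 in both libraries. As values were rounded to 2 decimals, a listed 0 leaves room for about 1.10 reads of Pramel4 and 1.02 reads of Pramel5 in the WT library, and for 0.90 and 0.83 reads in the G34R library. Gm13102, which shares most of the 50-base windows of Pramel4, was also listed at 0 in both. Transcripts of these genes were therefore not detectable at this depth in either line.

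A probe counted as lower or higher when its RPKM differed by more than 2-fold, values under 0.01 being set to 0.01, and when 1 library had at least 0.25 RPKM. Of the 6 genes 4 passed this filter. Of these, 2 were lower (Pramel6 and Pramel7), beside 9.64% of the 13366 probes that passed it, and 0 were higher, beside 5.79%. Pramel6 and Pramel7 passed the filter through their WT value alone, and a probe that passes in this way cannot be called higher. The median log2 ratio of the 4 genes was -1.75, midway between 2 lowered genes and 2 genes near 0, while that of all probes past the filter was -0.07. On chromosome 2 as a whole, 9.31% of 1063 probes past the filter were lower, and on chromosome 4 9.55% of 880, close to the share over all probes. The 6 genes summed to 15.2 RPKM in WT and 11.1 RPKM in G34R cells, and Pramef12 made up 66.2% and 64.9% of these sums. The share of Pramel6 and Pramel7 went from 6.70% and 5.32% to 0.63% and 0.90%.

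**Figure D3:**
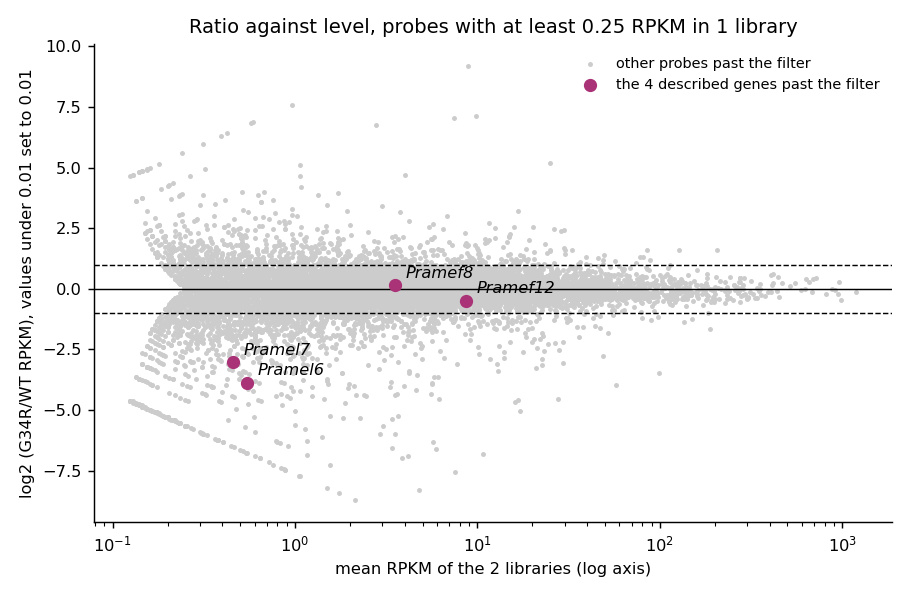
Log2 (G34R/WT RPKM) against the mean RPKM of the 2 libraries (log axis) for the 13366 probes with at least 0.25 RPKM in 1 library (grey), with 4 of the 6 genes in purple; dashed lines mark 2-fold. Pramel6 at -3.87 and Pramel7 at -3.02 lie below most probes of their level, whose ratios scatter more widely than those of highly expressed probes; Pramef8 and Pramef12 lie within the dashed lines.

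The rest of the family was read beside these genes. By name 9 other Prame family probes were present: Prame, Pramel1, Pramel3, Pramef6, Pramef17 and Oog1 to Oog4. Of these 3 passed the filter. Beside 9.64% and 5.79% of all probes past it, 2 were lower and 0 higher. Both lower genes passed through their WT value alone. Pramef17, the relative of Pramel7, was at 0.89 RPKM in WT and 0.04 RPKM in G34R cells, from about 138 and 5 reads, with a log2 ratio of -4.48 (-6.15 to -3.24). Pramel3, an X-linked member, was at 0.42 RPKM in WT cells and was listed at 0 in G34R cells, and 81.8% of its 50-base windows occurred elsewhere. Pramel1, the cluster gene next to Pramef8, was at 0.40 RPKM and 0.67 RPKM, a log2 ratio of 0.74 (0.36 to 1.13). The 4 oocyte-expressed Oog genes were listed at 0 in both libraries.

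A further 23 probes belong to the family by RefSeq synonym, a set added after values were seen. Of these 2 passed the filter, through their WT value alone, and both were lower, beside 9.64% of all probes past it. Gm13128 was at 1.76 RPKM in WT cells, from about 271 reads, and was listed at 0 in G34R cells. Summed with its near-identical copy Pramef17, so that the split of shared reads no longer matters, the pair went from 2.65 to 0.04 RPKM, a log2 ratio of -6.05. Gm12794 (Pramel19 in RefSeq), on chromosome 4 outside the cluster, was at 0.26 RPKM and 0.02 RPKM. The lower genes of the family thus included the 2 closest relatives of Pramel7 among the compared genes. Also lower were Pramel6, Gm12794 and Pramel3, which shared 59.7%, 60.6% and 54.4% of aligned bases with Pramel7. The synonym genes below the filter were not compared in sequence, so likeness cannot be set against lowering over the whole family. Pramef8, which shared 65.8%, was not lower.

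The 2 loci differed in their surroundings. Within 500 kb of Pramel6 and Pramel7 lay 50 other probes, 48 of them olfactory receptor genes, and 46 of the 50 were listed at 0 in both lines. None of the 50 reached 0.25 RPKM. The nearest probe beyond Pramel7 was Olfr1126, 31.0 kb away, at 0 RPKM in WT and 0.06 RPKM in G34R cells, and beyond Pramel6 Olfr153, 20.9 kb away, at 0.14 RPKM and 0.11 RPKM. The pair was therefore the only transcribed stretch of its region by this filter, in WT cells.

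Around Pramef8, 7 probes outside the family lay within 500 kb, 2 passed the filter and 1 was higher. That was Pdpn, which encodes the membrane glycoprotein podoplanin, at 3.18 RPKM in WT and 9.53 RPKM in G34R cells, named here after its values were seen. The nearest probe without a family name on the other side of Pramel1 from Pramef8 was Lrrc38, at 0.03 RPKM and 0.04 RPKM. The nearest on the cluster side was Gm13043, listed at 0 in both. Around Pramef12, 1 of 12 probes outside the family passed the filter, the overlapping D530049N12Rik, and it was neither lower nor higher. The nearest probes to Pramef12 were 1700012P22Rik, listed at 0 in both, and Gm13125, a Prame gene by synonym at 0.03 RPKM in WT and 0 RPKM in G34R cells. Beside Pramel4 lay Pramef17, and the nearest probes without a Prame family name were Gm13101, at 0.03 RPKM in WT and 0 RPKM in G34R cells, and Gm13102. Beside Pramel5 lay C87977, listed at 0 in both, and Gm13128.

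**Figure D4:**
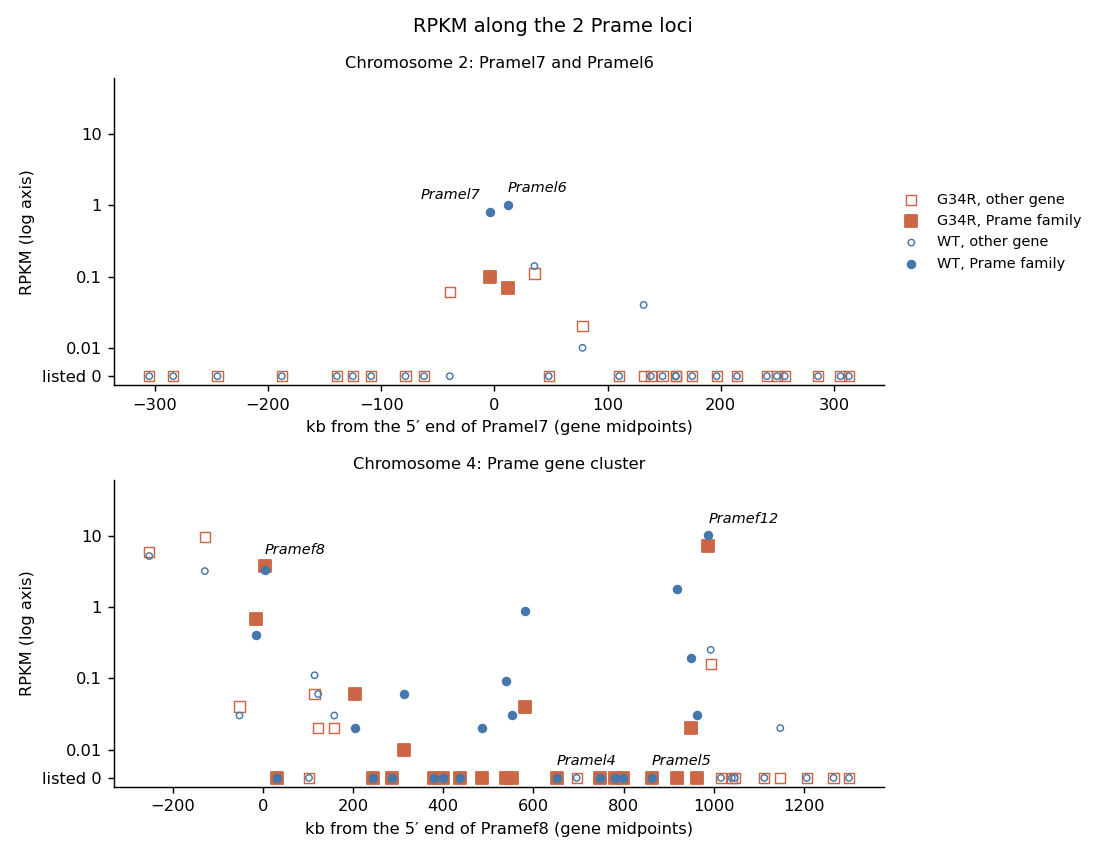
RPKM (log axis, with a place for values listed at 0) of genes by the distance of their midpoint from the 5′ end of Pramel7 (top) or Pramef8 (bottom), in kb; filled symbols are Prame family genes, open symbols other genes, circles WT and squares G34R. The family was taken by name or RefSeq synonym. Pramel6 and Pramel7 stand alone among genes at or near 0. In the chromosome 4 cluster the genes at the ends (Pramef8 and Pramef12) stay within 2-fold. Those between are under 0.25 RPKM in G34R cells and, apart from Pramef17 and Gm13128, also in WT cells.

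Genes of LIF signalling, of the cullin ligase and of DNA methylation or its removal were read as a Pramel7 pathway list of 19 names. Of these 17 had a probe. The other 2 names, Elob and Eloc, are newer symbols of Tceb2 and Tceb1, which are also listed, so no listed gene went unmeasured. As several listed genes lie upstream of Pramel7, the list is not a readout of genes it acts through. All 17 passed the filter, 0 were lower, beside 9.64% of all probes past the filter, and 1 was higher, beside 5.79%. Their median log2 ratio was 0.02. Among the 4 of highest level were the elongin subunit Tceb2 at 137 RPKM in WT and 120 RPKM in G34R cells, and Dnmt3l, the cofactor of de novo methyltransferases, at 68.3 RPKM and 94.9 RPKM. Uhrf1, the substrate of Pramel7, was at 53.2 RPKM and 51.1 RPKM, and the 5-methylcytosine oxidase Tet1 at 48.4 RPKM and 54.5 RPKM. The log2 ratio of the Uhrf1 transcript was -0.06 (-0.09 to -0.03), which says nothing of its protein.

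Outside the rule for named genes, chosen after their values were seen, are Dnmt1, the maintenance methyltransferase, Stat3, Socs3 and Cul2. Dnmt1 was the 1 gene of the list that was higher, at 8.14 RPKM in WT and 44.4 RPKM in G34R cells, with a log2 ratio of 2.45. The signal transducer Stat3 was at 7.15 RPKM and 7.97 RPKM, its feedback inhibitor Socs3 at 36.6 RPKM and 38.6 RPKM, and the scaffold Cul2 at 16.9 RPKM and 13.0 RPKM.

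Genes of the 2-cell-like state, a rare state of ES cells that resembles the 2-cell embryo, were read for comparison with Pramel6 and Pramel7. Of 22 names on the list 14 had a probe and 8 passed the filter. Of these 7 were lower, beside 9.64% of all probes past it, and 0 higher, beside 5.79%. The 7 lower genes passed the filter through their WT value alone. The 4 of highest level were the translation factor Eif1a, at 38.8 RPKM in WT and 28.1 RPKM in G34R cells, and the zinc finger genes Zscan4b at 1.96 RPKM and 0.04 RPKM, Zscan4c at 1.80 RPKM and 0.11 RPKM, and Zscan4d at 1.60 RPKM and 0.08 RPKM. The WT levels of these Zscan4 genes were of the order of those of Pramel6 and Pramel7. The Zscan4 genes are copies of one another, so the split of reads among them is uncertain.

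Oocyte genes were called in both directions. Of 21 names 20 had a probe and 6 passed the filter. Of these 3 were lower, beside 9.64% of all probes past it, and 2 higher, beside 5.79%. Among the lower genes Nlrp14 and Npm2, named here after their values were seen, passed the filter through their WT value alone. Ooep, a subunit of the maternal subcortical complex, was at 19.4 RPKM in WT and 13.6 RPKM in G34R cells, and its partner Tle6 at 0.51 RPKM and 1.43 RPKM. The NLR family gene Nlrp4f was at 3.06 RPKM and 20.0 RPKM, and Zp3, of the egg coat, at 2.69 RPKM and 0.71 RPKM.

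**Figure D5:**
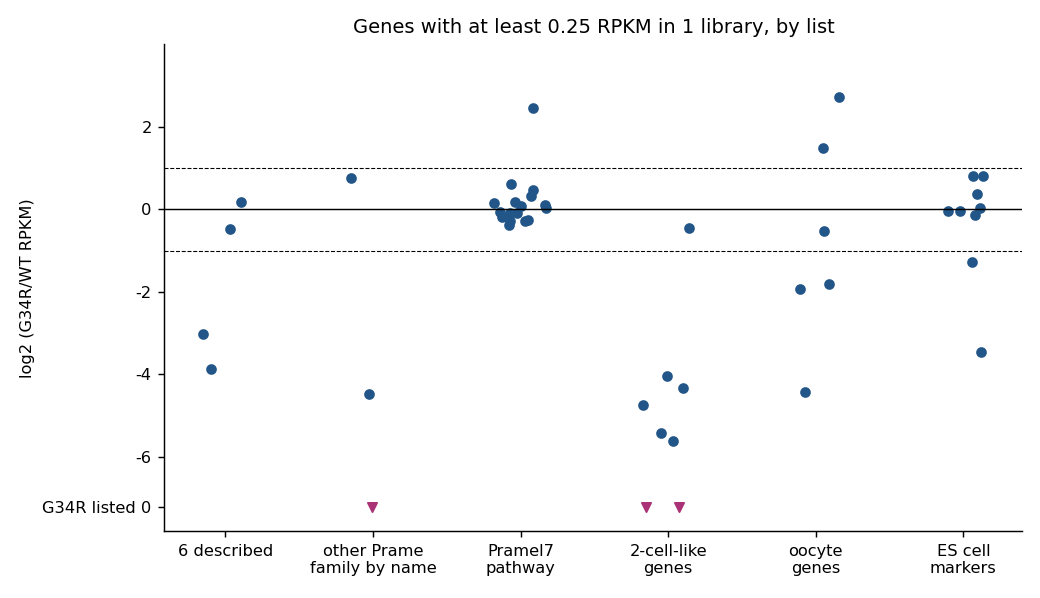
Log2 (G34R/WT RPKM) of the genes with at least 0.25 RPKM in 1 library, by list; each point is a gene, triangles mark genes listed at 0 in G34R cells, dashed lines mark 2-fold, and the sideways spread within a list only separates the points. Of the 4 genes of the described group 2 lie below the dashed lines, the pathway genes lie near 0 apart from Dnmt1 at 2.45, and all 2-cell-like genes but Eif1a lie below -4.

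The genes closest in both levels were found from the distance in log2(RPKM + 0.01) over the 2 libraries, for genes of at least 1 RPKM. Nearest to Pramel6 were Gm9 at 0.98 RPKM in WT and 0.07 RPKM in G34R cells, 4930502E18Rik at 0.91 RPKM and 0.07 RPKM, and Rhox10, a reproductive homeobox gene, at 1.05 RPKM and 0.06 RPKM. All 3 are on the X chromosome. Nearest to Pramef8 were Smug1, Rsbn1 and Bbx, and nearest to Pramef12 were Krr1, 4632434I11Rik and Yif1a. With 2 libraries such likeness is only a matching pair of levels.

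Markers of the cell state were read in the same libraries. Over all probes past the filter 9.64% were lower and 5.79% higher. Of 10 ES cell markers 9 had a probe under the listed name and all 9 passed the filter. Their summed level was 1461 RPKM in WT and 1234 RPKM in G34R cells. Left out of these counts was Tfcp2l1, present as Tcfcp2l1 at 40.75 RPKM and 53.39 RPKM. Pou5f1 was at 194 RPKM and 189 RPKM, but 2 of the 9 were lower: Zfp42 (Rex1), at 180 RPKM and 16.4 RPKM, and Nanog, at 127 RPKM and 52.2 RPKM. By direction alone 5 of the 9 were below their WT level and 4 above it, with a median log2 ratio of -0.04. The highest ratios, within 2-fold, were those of Utf1, at 61.9 RPKM and 108.6 RPKM, and Klf4, at 25.1 RPKM and 43.7 RPKM. Both are named here after their values were seen. Of 6 primitive endoderm markers 3 were higher, with sums of 2.07 RPKM and 4.55 RPKM. Of 7 fibroblast markers 1 passed the filter, Thy1, with sums over the list of 1.48 RPKM and 0.94 RPKM, and Postn, Lum and Dcn were listed at 0 in both. Of 6 trophoblast markers 5 had a probe under the listed name, 1 was lower and 1 higher, with sums of 3.79 RPKM and 3.41 RPKM. These sums leave out Tfap2c, which was present as Tcfap2c. It was at 5.19 RPKM in WT and 6.81 RPKM in G34R cells, above either sum. Of 5 primed epiblast markers 2 were lower and 0 higher, with sums of 42.7 RPKM and 36.0 RPKM. The part of these cell state differences in the lower levels of Pramel6 and Pramel7 was not tested.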

How the data were processed

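Total RNA of each of the 2 ES cell lines, WT and G34R, was sequenced as 1 stranded library, in single reads of 50 bases. Per the labels and the methods, the authors mapped the reads to mm9 with STAR (2.4.2a), took primary alignments into Seqmonk and deposited RPKM, which they corrected for transcript length with isoforms merged and strand kept. The RPKM have 2 decimals and no counts were used.

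The 6 genes and the gene lists were chosen with earlier results of these data known. Log2 (G34R/WT RPKM) was computed with values under 0.01 set to 0.01. A probe was called when it differed by more than 2-fold and had at least 0.25 RPKM in 1 library. With 1 library per line no test was made. Depth was taken from the spacing of RPKM values among short genes of 1 exon, under 800 bases long (92 genes in WT and 78 in G34R cells). Estimated reads are the RPKM multiplied by merged exon length and depth, and their exact 95% intervals (SciPy 1.17.1) cover counting error only. The depth and call functions were tested on simulated data. Gene structures came from GENCODE M1, matched to 26055 of 26127 probes by position and strand, sequences from the mm9 genome, and synonyms from the RefSeq table for GRCm38.p6, of which no coordinates were used. Repeated 50-base windows were found with blastn (2.17.0), and coding sequences were aligned pairwise with Biopython (1.88).

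Genes were named by rule: the 6 genes, other Prame family probes of at least 0.25 RPKM, the 4 probes of highest mean RPKM in each gene list, the nearest probes outside the family by name, and the 3 probes closest in both levels. Alternatives were other offsets, scalings, filters and fold limits, and the wider family by RefSeq synonym, which was added after seeing the data.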

Additional observations from a re-analysis of the deposited data

How the results depend on the processing

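No paired analysis was possible because each line had 1 library, and for the same reason no replicate could be left out. Of the 6 genes, 2 were lower and 0 higher under every offset, scaling, filter and fold limit tried, except that 0 were lower with 1 added to each RPKM and 1 (Pramel6) with a filter of at least 1 RPKM. The median log2 ratio of the genes past the filter was -1.75, and -0.58 with 1 added, -0.24 with no filter and -0.49 with the filter of at least 1 RPKM. The log2 ratio of Pramel6 was -2.72 with 0.1 added and -0.92 with 1 added, and that of Pramel7 was -2.19 and -0.72. Adding 1 to values near or below 1 shrinks their ratios by construction. Rescaling to the same RPKM sum or median moved the median of all probes by 0.05 and changed no direction among the 6 genes. Other Prame family probes that were lower numbered 2, and 0 with 1 added, 3 with no filter, 0 with the filter of at least 1 RPKM and 4 with the probes named by RefSeq synonym. Those higher numbered 0, and 1 (Pramel1) with a limit of 1.5-fold. Over all probes, 1289 were lower and 774 higher. With 1 added these were 356 and 196, with no filter 2877 and 1445, with the filter of at least 1 RPKM 689 and 439, with a limit of 1.5-fold 2422 and 1780, and with a limit of 3-fold 721 and 331. Depth limits the ratios of Pramel6 and Pramel7, whose G34R values rest on about 11 and 15 reads.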
